A study of Homo sapiens with 5 samples.

Results

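Genome folding was described in control RMG1 cells, from the 1 Hi-C library of the control, over the measured 1 Mb bins of chromosomes 1 to 22. The deposited matrix of this library held 3109 bins, of which 2673 were measured bins of chromosomes 1 to 22. A further 31 bins with under 0.25 of the median number of contacts were left out, so that 2642 bins entered the results. RMG1 is an established cell line from a human clear cell carcinoma of the ovary. The control cells carried a control hairpin (shControl) and were labelled WT for ARID1A, which is part of the BAF complex that remodels chromatin, and WT for CAPH2, a subunit of the condensin II complex. The series of 5 libraries also held ARID1A knockout and CAPH2 knockdown libraries of the same line. The labels do not say whether the control was a clone or from how many cultures it came, and Hi-C holds no expression by which the line could be checked against markers. With 1 library there is no replicate check: all differences are between regions of this library, intervals cover counting error only, and no test was made.

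In situ Hi-C crosslinks, cuts and ligates DNA inside nuclei, so that the number of ligated fragments between a pair of regions reports how often they lie close together. Each chromosome tends to keep to a territory of its own, in which near regions meet more often than far ones, and active, gene-rich chromatin (compartment A) and inactive, gene-poor chromatin (compartment B) each prefer their own kind. Condensin II is known for compacting chromosomes and for keeping territories apart. In cancer cells, sequences of different chromosomes that have been joined into one molecule meet as often as neighbours do, so that breaks and fusions stand out in the same contact map.

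The values were a balanced contact signal, in which the total of nearly all bins was set to be the same: 94.9% of bins had a total within 0.1% of the median. Contacts before balancing could be recovered from the values and came to 25694359 between bins, of which 41.3% joined different chromosomes (trans contacts) and the rest joined bins of 1 chromosome (cis contacts). A bin had a median of 18959 contacts with other bins, from 4725 to 82892. A trans bin pair had 3.22 contacts on average and 10.4% of the 3294946 trans bin pairs had none, so single trans bin pairs near the mean were not resolved, whereas sums over chromosomes or compartments rested on many more.

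Most contacts stayed within a chromosome. Of the summed signal of all bins, 29.5% lay within the bin itself, 41.4% joined different bins of 1 chromosome and 29.2% joined different chromosomes. Without contacts within a bin the trans percentage was 41.4% in the signal and 41.3% in recovered contacts (exact 95% binomial interval 41.30% to 41.34%). By chromosome this percentage of the signal was highest for chromosome 17 (57.1%), chromosome 22 (54.8%) and chromosome 20 (52.9%). It was lowest for chromosome 7 (36.4%), chromosome 6 (36.4%) and chromosome 18 (36.8%). The low end depended on the scale. In recovered contacts the lowest were chromosome 4 (35.4%), chromosome 2 (35.7%) and chromosome 6 (37.0%). Chromosomes 7 and 18 then stood at 40.0% and 41.5%. Across the 22 chromosomes the percentage of the signal fell with measured length (Spearman rho -0.70, Pearson r -0.74). It rose with the number of RefSeq protein-coding genes per measured Mb (rho 0.67, r 0.61). The mean trans signal per bin pair of a chromosome, without bin pairs near joins, had weaker relations, with length (rho -0.61, r -0.66) and with gene density (rho 0.54, r 0.33). Length and gene density were themselves related over these chromosomes (rho -0.48), and all points share 1 library and its balancing, so these correlations are descriptions.

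Within an arm, contacts fell steeply over the first few Mb and more slowly beyond. The mean signal of a bin pair was 780 times the mean trans signal at a distance of 1 Mb, 187 times at 2 Mb, 48.0 times at 5 Mb and 24.7 times at 10 Mb. It was 16.8 times at 20 Mb, 6.44 times at 50 Mb and 1.97 times at 100 Mb, the last from 937 contacts in 152 bin pairs. Bins of the same arm therefore still met more often than bins of different chromosomes at the longest distances with many bin pairs. Neighbouring bins (1 to under 2 Mb) gave 43.3% of cis signal between bins, distances of 2 to under 5 Mb gave 18.9%, and those of 20 to under 50 Mb gave 12.5%.

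The slope of log10 signal on log10 distance was -0.97 from 1 to 50 Mb. It was -1.46 over the first 10 Mb and -0.84 from 10 to 50 Mb, where the curve had a shoulder at about 20 Mb and bent down again after it. Single chromosomes had a median slope of -0.96 with an SD of 0.108 over the 22 chromosomes. The steepest decay was that of chromosome 21 (-1.27), chromosome 3 (-1.15) and chromosome 9 (-1.08), and the shallowest that of chromosome 19 (-0.82), chromosome 22 (-0.83) and chromosome 18 (-0.84). The shallow and the steep ends each held small chromosomes, and the slope showed little relation to measured length (rho -0.11) or to gene density (rho 0.05) over the 22 chromosomes. Counting error hardly enters the curve over all chromosomes, whose points at up to 50 Mb rest on at least 20267 contacts each. Single chromosomes rest on fewer contacts. Chromosomes 21 and 22, with 33 and 34 measured bins, and chromosome 19, with arms of 23 and 31 bins, have no same-arm bin pairs at 50 Mb. Their slopes cover shorter distances only, and are not strictly comparable with those of longer chromosomes.

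**Figure D1:**
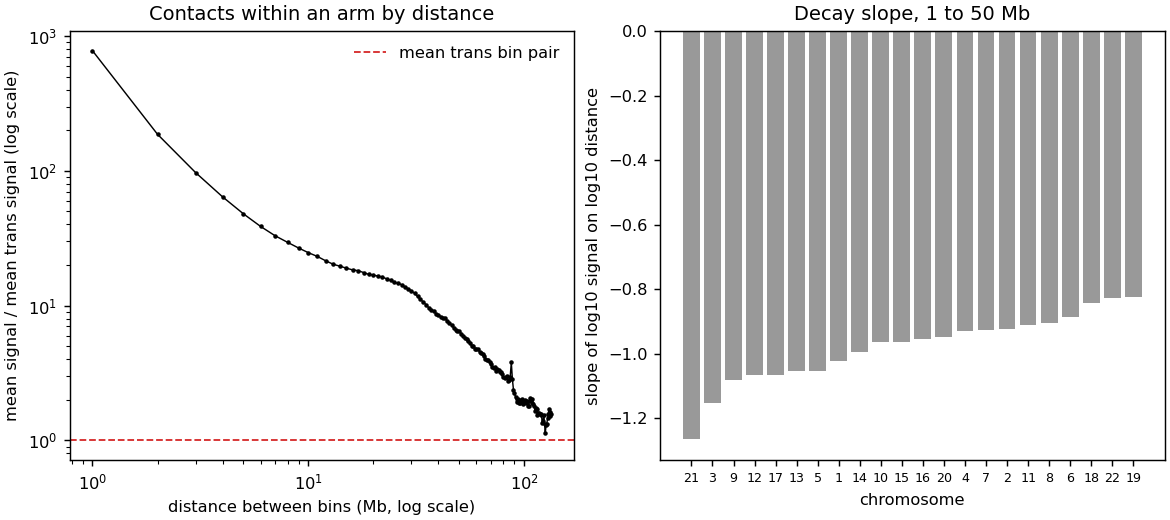
Left: mean contact signal of bin pairs within an arm over the mean trans signal (dashed line at 1), against the distance between the bins in Mb, both on log scales. Right: slope of the decay by chromosome, from 1 to 50 Mb or to the longest distance within its arms where this is shorter. The curve falls from 780 to 6.44 times the trans mean between 1 and 50 Mb, and the slopes run from -1.27 (chromosome 21) to -0.82 (chromosome 19).

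A single point of this curve stood out at 87 Mb, where the mean signal was 3.80 times the trans mean against 2.97 at 86 Mb and 2.85 at 88 Mb. Among its 290 bin pairs was the strongest cis join described below, on chromosome 5, whose bins lie 87 Mb apart. Joins of this kind were frequent enough to touch many measures. The decay, the arm ratio, the trans compartment strength and the values of chromosome pairs were also taken without the bins or bin pairs around them.

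Contacts between the arms of a chromosome were compared with contacts within arms of the same chromosome at the same distance. The longest inner run of unmeasured bins marked the centromere, which left 17 chromosomes with 2 measured arms and 5 chromosomes with 1 (chromosomes 13, 14, 15, 21 and 22). Over 49812 bin pairs, the mean signal across the centromere was 18.2 against 20.9 within arms, a log2 ratio of -0.20. The ratio was below 0 on 13 chromosomes and above 0 on 4, with a median of -0.22. Bins on either side of a centromere thus met somewhat less often than bins equally far apart on 1 arm on most chromosomes.

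The arm ratio changed with distance and did not keep 1 direction. It was 0.40 at 5 to under 10 Mb (204 bin pairs), -0.05 at 10 to under 20 Mb, -0.43 at 20 to under 50 Mb, -0.13 at 50 to under 100 Mb and 0.19 at 100 Mb or more, where only 6 chromosomes were long enough. The deficit was deepest at 20 to under 50 Mb, with a mean signal of 30.2 across the centromere against 40.5 within arms. By chromosome the ratio was lowest on chromosome 19 (-0.78), chromosome 7 (-0.62) and chromosome 20 (-0.45). It was highest on chromosome 9 (1.08), chromosome 3 (0.27) and chromosome 1 (0.23).

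Chromosome 9, with the highest value, has the longest unmeasured gap, from 39000001 to 71000000 in hg19, and its 703 cross-centromere bin pairs lay at long distances. They were compared with same-arm bin pairs of chromosome 9 at the same distances, and the part of the gap in this value was not tested. Chromosomes 1, 3 and 9 carried several of the joins described below, but so did chromosomes 10 and 17, with ratios of -0.06 and 0.04. Leaving out bins within 5 Mb of a join of at least 10-fold removed 52.6% of bins and left a ratio for 11 chromosomes, 8 of them below 0, with -0.33 over all. Signs turned both ways. Chromosome 1 went from 0.23 to -0.55, whereas chromosome 2 went from -0.41 to 0.17 and chromosome 5 from -0.13 to 0.64. Chromosome 3 stood at 0.06 and chromosome 7 at -0.79. Chromosomes 9, 19 and 20 had no value in this setting.

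**Figure D2:**
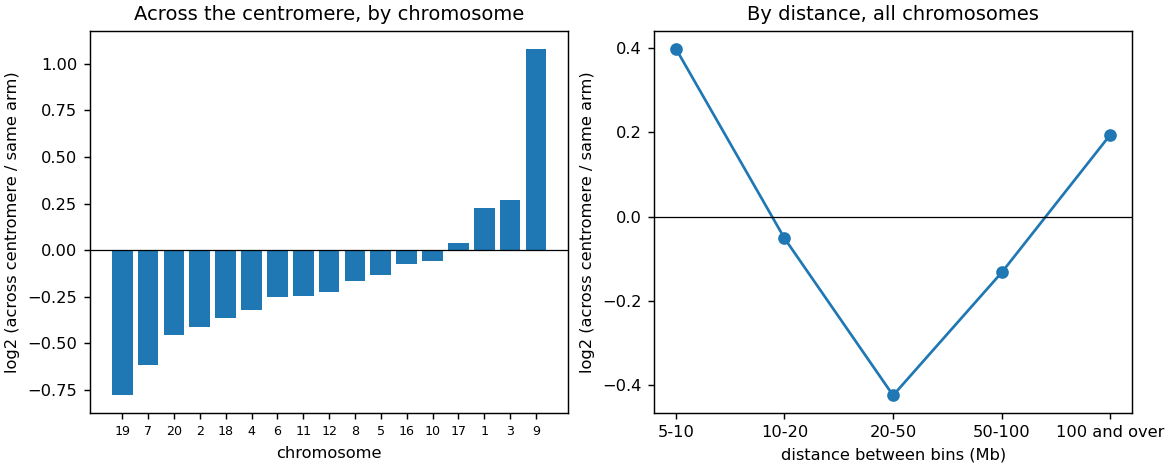
Left: log2 of mean signal across the centromere over mean signal within arms at the same distances, by chromosome, for the 17 chromosomes with 2 measured arms. Right: the same ratio over all these chromosomes by class of distance in Mb, with its lowest value of -0.43 at 20 to under 50 Mb; 13 of 17 chromosomes lie below 0.

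Bins were divided into compartments by the first eigenvector of the contact pattern within each chromosome, and the side with the higher trans percentage was called A. Of the 2642 bins, 1220 (46.2%) fell in A and 1422 (53.8%) in B. The eigenvector followed the trans share well on most chromosomes, with a Pearson r over bins from 0.66 to 0.85 on 21 of 22, but less well on chromosome 17 (0.46), where the third eigenvector followed it better. Compartment calls of chromosome 17 are therefore less certain than those of the others. Taking eigenvectors over each arm in place of whole chromosomes changed the call of 145 bins.

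A and B alternated along the chromosomes in runs of a few Mb. There were 303 runs of A bins with a median length of 2 Mb and 290 runs of B bins with a median of 3 Mb, and 27 runs of A and 34 runs of B were at least 10 Mb long. In hg19 positions, the longest A runs were chr13:20000001-47000000, of 27 Mb, and a run of 21 Mb on chromosome 3 from 177000001. The longest B runs were chr13:53000001-99000000, of 46 Mb, and chr1:65000001-92000000, of 27 Mb. Chromosome 13, which has the fewest protein-coding genes per measured Mb of the 22 chromosomes (3.56), thus held both the longest A run at the start of its long arm and the longest B run after it. The A run on chromosome 13 spans the bin at which this chromosome is joined to chromosome 12, and the run on chromosome 3 begins just after the bin joined to chromosome 4, both described below.

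The percentage of bins in A was highest on chromosome 22 (55.9%), chromosome 17 (54.5%) and chromosome 19 (51.9%), which are the 3 chromosomes with the highest gene density (13.3, 15.2 and 26.9 protein-coding genes per measured Mb). Chromosome 15, with 7.71 genes per Mb, came close behind at 51.25%. With eigenvectors over arms chromosome 19 had 48.1%, below chromosome 15, so that the match of these 3 depended on the setting. The percentage was lowest on chromosome 11 (39.5%), chromosome 3 (40.5%) and chromosome 20 (40.7%). The low end did not follow gene density, since chromosome 11 had 10.1 genes per Mb and chromosome 20 had 9.10. Over 22 chromosomes the rank correlation of A percentage with gene density was 0.41 (Pearson r 0.47).

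A and B bins also differed in local folding, a measure that had no part in the eigenvector. Contacts within the bin itself took a median of 31.6% of the signal of A bins (quartiles 28.9% and 34.9%) and 26.7% of that of B bins (quartiles 24.8% and 28.6%). The A median lay above the B median on 22 of 22 chromosomes, and the quartile ranges over all bins lay apart by little. The median trans percentage of A bins was 46.3% against 36.4% of B bins, which describes the sign rule and is no finding. Contact yield before balancing, relative to the median bin, was 0.956 in A and 1.03 in B, and was higher in A on only 2 chromosomes.

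Contacts between chromosomes sorted by compartment. Between the outer 20% of bins at each end of the eigenvector, trans contacts of A with A were 1.80 times the mean, those of B with B 1.12 times and those of A with B 0.651 times. The ratio of like to unlike contacts, the compartment strength in trans, was 2.25. It was above 1 on 22 of 22 chromosomes, and A-A contacts exceeded B-B contacts on 22 of 22. Since A was named as the side with more trans contacts, the excess of A-A over B-B describes that rule in part and is no finding. A strength above 1 on each chromosome also follows from that rule in part, so its count is no finding either. The contrast that the rule does not favour is that of B-B with A-B contacts (1.12 against 0.651 times the mean). Within chromosomes, where the same contacts made the eigenvector and the values are a description only, B-B contacts were the higher (1.62 against 1.38 for A-A and 0.432 for A-B, a strength of 3.47).

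The strength in trans was highest for chromosome 11 (2.58), chromosome 9 (2.58) and chromosome 17 (2.57), and lowest for chromosome 13 (1.65), chromosome 18 (1.91) and chromosome 4 (1.98). The 3 lowest were also the 3 chromosomes with the fewest genes per Mb (3.56, 3.65 and 4.10). These 6 chromosomes were picked out after their values were seen. On chromosome 13 the A-A value was 1.42 and the A-B value 0.812, against 1.80 and 0.651 over all chromosomes. Its A bins thus met the A bins of other chromosomes less than was the case over all chromosomes. The A-B value pools its A bins with B bins elsewhere and its B bins with A bins elsewhere, and does not tell these apart.

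**Figure D3:**
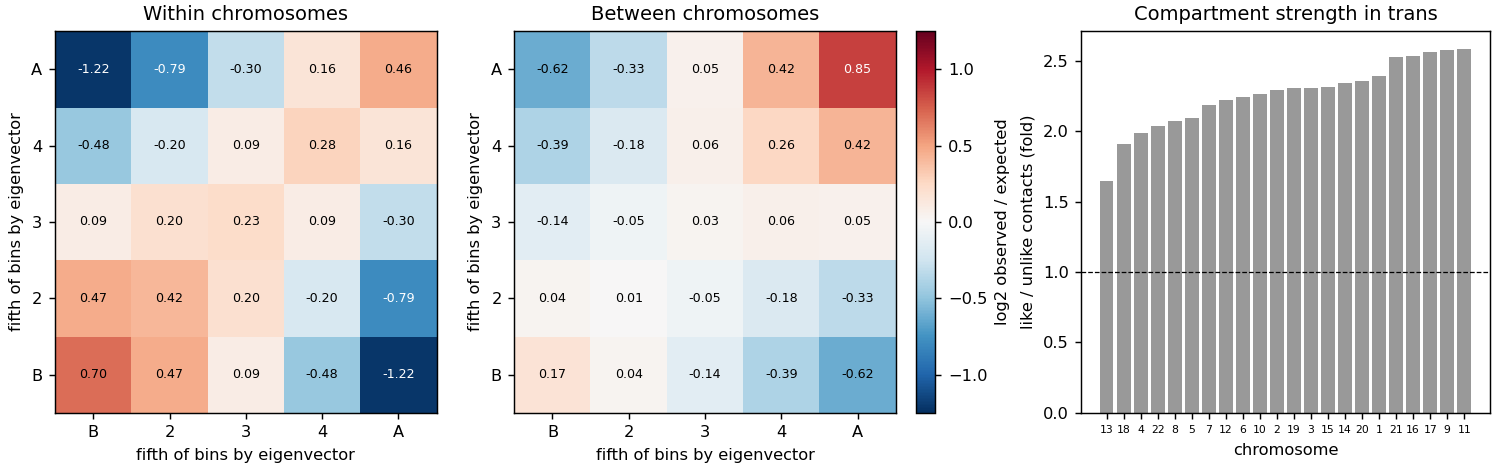
Left and middle: log2 of observed over expected signal between 5 equal classes of bins ranked by eigenvector, from B to A, within and between chromosomes. Right: compartment strength in trans (like over unlike contacts, dashed line at 1) by chromosome, from 1.65 on chromosome 13 to 2.58 on chromosome 11; between chromosomes the highest cell is A with A (0.85) and the lowest A with B (-0.62).

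Chromosomes did not meet in proportion to their number of bins alone. For each pair of the 22 chromosomes, the mean signal of its bin pairs was set over the mean of all trans bin pairs, so that a value of 0 on the log2 scale is the expectation by size. A pair was called above or below when it was 0.32 or more from 0 on this log2 scale. Of all pairs, 45 (19.5%) were above and 8 (3.46%) below. Leaving out bin pairs within 20 Mb of a join on both axes, 4.83% of trans bin pairs, 40 pairs (17.3%) were above and 5 (2.16%) below. In this setting the mean was taken over the trans bin pairs kept, which raised every pair that lost no bin pairs by 0.07. Of the 45 pairs above with all bin pairs, 32 were also above without those near joins, and of the 8 below, 4 were also below. With the mean of all trans bin pairs as the base, 30 pairs were above and 10 below. High pairs were more frequent than low ones in the balanced signal but not in recovered contacts, where 42 were above and 48 below. With an expectation from trans totals, 21 were above and 8 below.

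The highest pairs without bin pairs near joins were chromosomes 17 and 22 (log2 1.26, with 72.5% of their bin pairs left out), 19 and 22 (1.23, none left out), 20 and 22 (1.20), 17 and 19 (1.05) and 21 and 22 (1.01). With all bin pairs their values were 1.03, 1.16, 1.22, 0.87 and 1.04. Chromosome 22 took part in 4 of these 5 pairs and every chromosome in them had at most 77 measured bins. The lowest pairs were chromosomes 2 and 18 (-0.41), 6 and 18 (-0.39), 4 and 18 (-0.37), 3 and 18 (-0.35) and 4 and 19 (-0.34). With all bin pairs their values were -0.48, -0.46, -0.45, -0.42 and -0.21, so that the pair of 4 and 19 passed the threshold only without bin pairs near joins. Chromosome 18 took part in 4 of these, each time with one of the larger chromosomes.

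The small chromosomes 16, 17, 19, 20 and 22, listed here as gene-rich, were high with each other. Chromosome 20 has fewer genes per measured Mb (9.10) than the longer chromosomes 1 (9.33) and 11 (10.1). All 10 pairs among them were above the threshold, against 17.3% of all pairs, and their median without bin pairs near joins was 0.86, from 0.49 to 1.26. Chromosome 21, small as well but with only 7.24 genes per measured Mb, was also above the threshold with all 5 of them (0.56 to 1.01), as was seen after the values were known. Chromosomes 14 and 15, with 6.88 and 7.71 genes per measured Mb, were above it with each of them except chromosome 19 (0.35 to 0.57). This was seen after the values were known as well. The pairs of chromosomes 14 and 15 with chromosome 16 lost no bin pairs and passed the threshold only through the shift of the mean. With all bin pairs both stood at 0.28, and in recovered contacts at 0.11 and -0.06. The median over all pairs was 0.03 without bin pairs near joins. Pairs among the large chromosomes 1 to 5 numbered 10, with a median of -0.09 and none past the threshold in either direction, against 2 above with all bin pairs. The 25 pairs of a small gene-rich with a large chromosome had a median of -0.04, with none above and 1 below, against 4 and 1 with all bin pairs and 4 and 8 in recovered contacts. Among the large chromosomes, pair 2 and 3 had the highest value of 0.30 without bin pairs near joins and 0.69 with them, a pair chosen here after its values were seen.

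Of the gene-poor chromosomes 4, 13 and 18, chromosome 18 took part in most of the low pairs of the balanced signal with the expectation by size. Without bin pairs near joins it was also above the threshold with chromosomes 20 (0.45) and 21 (0.39). The 60 pairs that included chromosome 4, 13 or 18 had a median of 0.02 without bin pairs near joins, with 6 above and 5 below, or 10% and 8.33% against 17.3% and 2.16% of all pairs. The median of the list lay near that of all pairs. With all bin pairs, 5 of the 8 low pairs were in this list, and in recovered contacts 15 of 48. With an expectation from trans totals, 5 pairs of the list were above and 3 below, with a median of -0.06. Chromosome 18 then stood at -0.19, -0.26, -0.16 and -0.08 with chromosomes 2, 3, 4 and 6, none of them past the threshold. The 10 pairs among the acrocentric chromosomes 13, 14, 15, 21 and 22, whose short arms carry ribosomal genes, had a median of 0.45, and 8 of them were above the threshold. In recovered contacts 4 were above, with a median of 0.22, and with an expectation from trans totals 2 were above and 1 below, with a median of 0.10. Of these chromosomes, 21 and 22 are also small, and the short arms themselves lay in unmeasured bins.

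Over all pairs, the value without bin pairs near joins fell with the mean length of both chromosomes (rho -0.57, r -0.64) and rose with their mean gene density (rho 0.35, r 0.44). In this setting it had almost no relation to how unlike their gene densities were (rho 0.02) or how unlike their lengths were (rho -0.08). Pairs share chromosomes, so the points are not independent. The size of the relations depended on the scale. In recovered contacts they were weaker (rho -0.19 with length and 0.17 with gene density). With an expectation from the trans totals of both chromosomes they were weaker still (rho -0.13 and 0.07), while the value then fell with the unlikeness of the lengths (rho -0.35, r -0.31) and less with that of the gene densities (rho -0.17). The excess among the small gene-rich chromosomes kept its direction on both scales, with medians of 0.68 and 0.41, and 9 and 7 of the 10 pairs above the threshold.

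**Figure D4:**
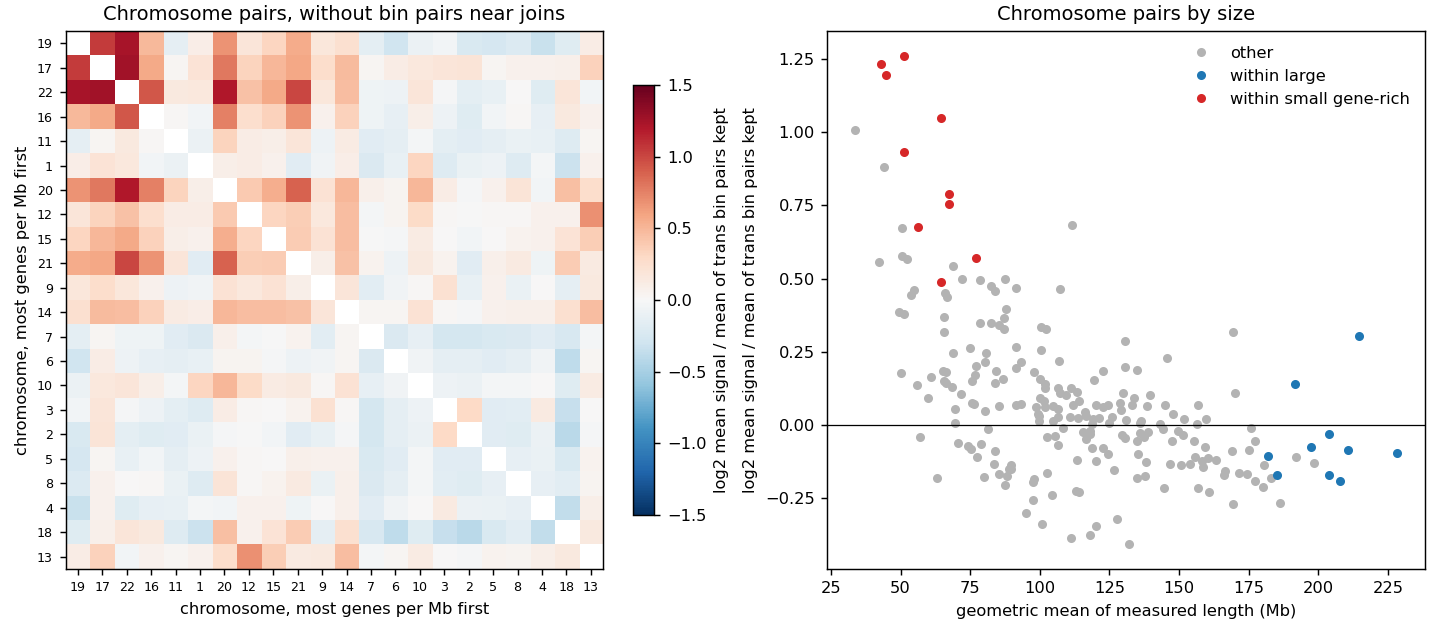
Left: log2 of mean signal over the mean of the trans bin pairs kept, for all pairs of chromosomes, ordered by protein-coding genes per measured Mb and without bin pairs near joins. Right: the same values against the geometric mean of both measured lengths in Mb, with pairs among chromosomes 16, 17, 19, 20 and 22 in red (0.49 to 1.26) and pairs among chromosomes 1 to 5 in blue, 0.30 at the highest.

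Single places on different chromosomes with a trans signal far above the rest were taken as candidate joins of the rearranged genome: bin pairs at 10 or more times the mean trans signal, merged when within 3 bins of each other. There were 264, made of 2883 bin pairs, or 0.0875% of all trans bin pairs. The files hold no sequence across a join, no read orientation and no normal cells of the same person, so that a break in the cells and a reference sequence placed elsewhere cannot be told apart. Bins are named below by the hg19 position of their first base, and each is 1 Mb long.

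The weak and the strong candidates differed in place. Of the 264, 199 had a summit of 10 to under 20-fold, with a median of only 25 contacts, and 81 of these lay between the 3 outermost measured bins of both chromosomes. Such pairs of outermost bins make up 0.252% of trans bin pairs, had a mean signal of 2.30 times the trans mean, and held 36.0% of all candidates. Of the 40 candidates at 50-fold or more, only 2 lay between outermost bins. The lowest summit of these 40 held 132 contacts, and all 40 were also at least 10-fold in recovered contacts. The following concerns these 40 unless stated otherwise.

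Chromosome 1 took part in 11 of the 40, chromosomes 10 and 17 in 7 each, and chromosomes 3 and 19 in 6 each. Chromosomes 7, 21 and 22 took part in none. At the 10-fold threshold chromosome 17 had the most, 61 of 264.

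The 10 strongest summits ranged from 206 to 376 times the mean trans signal. Their order is that of the balanced signal and differs from the order by contacts. The highest was between chromosome 3 at 49000001 and chromosome 19 at 9000001, at 376-fold with 591 contacts (95% Poisson interval 544 to 641). It was followed by chromosome 12 at 53000001 with chromosome 13 at 44000001, at 370-fold with 1382.5 contacts. The third was chromosome 10 at 1, the outermost bin of its short arm, with chromosome 20 at 46000001, at 326-fold with 848 contacts. The highest by signal had fewer contacts than the other 2, and its bins had yields of 0.68 and 0.48 of the median bin. In the balanced signal, each of these 3 joins stood above bins 2 Mb apart on 1 arm (187 times the trans mean). Each stood below direct neighbours (780 times).

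The next were chromosome 9 at 139000001 with chromosome 17 at 79000001 (294-fold), both near the end of a long arm, and chromosome 1 at 17000001 with chromosome 17 at 73000001 (252-fold). Then came chromosome 1 at 146000001 with chromosome 16 at 70000001 (236-fold) and chromosome 3 at 50000001 with chromosome 14 at 23000001 (234-fold). The last of the 10 were chromosome 3 at 176000001 with chromosome 4 at 110000001 (212-fold), chromosome 4 at 159000001 with chromosome 6 at 30000001 (211-fold) and chromosome 1 at 52000001 with chromosome 18 at 11000001 (206-fold). Their contacts ran from 265, for chromosomes 1 and 16, to 1149, for chromosomes 4 and 6. Chromosomes 1 and 3 each gave 3 of the 10.

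The shape of the signal around a summit differed between joins. A join of whole chromosome pieces leaves a raised block on the side of each chromosome that was kept, and an exchange of both pieces leaves a pair of opposite blocks. The mean signal was therefore taken in the 4 quadrants of 10 bins around each summit, with 3 times the trans mean as raised. All 4 quadrants were measured for 37 of the 40. Of these, 18 had no raised quadrant, 12 had 1, 6 had 2 and 1 had 3. In only 2 of the 6 were the raised quadrants opposite each other.

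These 2 were the join of chromosomes 12 and 13 and one of chromosomes 2 and 3. Around the first, the mean signal was 9.54 times the trans mean between lower positions of chromosome 12 and higher positions of chromosome 13, and 10.4 times in the opposite quadrant, against 1.33 and 0.964 in the remaining quadrants. The second, between chromosome 2 at 114000001 and chromosome 3 at 168000001 (153-fold), lay outside the 10 strongest and is named after its values were seen. Its opposite quadrants held 13.8 and 14.3 times the trans mean against 0.883 and 0.805. Its raised region was the widest of the pair, 54 Mb on chromosome 2 by 63 Mb on chromosome 3, in 563 bin pairs at 10-fold or more. Both have the pattern described above for an exchange of both pieces, seen at a resolution of 1 Mb.

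A block on 1 side only was clearest for chromosomes 3 and 4. The mean signal was 12.1 times the trans mean between lower positions of chromosome 3 and higher positions of chromosome 4, and 0.864 to 0.971 in the other quadrants, over 147 bin pairs. Chromosomes 3 and 19 had 1 raised quadrant of 11.1, with 1.37 to 2.46 in the others, and chromosomes 10 and 20 had 9.69 in 1 of the 2 quadrants that could be measured next to the chromosome end. The join of chromosomes 9 and 17, close to both chromosome ends, had 3 raised quadrants, of 13.8 to 19.2. Each of them lay toward at least 1 end and held few bins, and the quadrant away from both ends had 2.89.

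Other summits were sharp points with no block beside them. The join of chromosomes 4 and 6 had 0.639 to 1.01 times the trans mean in all 4 quadrants, and that of chromosomes 1 and 18 had 0.721 to 0.768. In the first, the single bin of chromosome 6 met bins of chromosome 4 at 2 to 10 Mb from the summit at 5.43 times the trans mean toward lower and 6.01 times toward higher positions. The single bin of chromosome 4 met the surroundings of the chromosome 6 bin at 1.30 and 1.28 times. Only the chromosome 6 side was thus limited to 1 bin. In the second, bins of chromosome 1 at higher positions met the chromosome 18 bin at 3.55 times the trans mean and those at lower positions at 0.789. Of the 18 summits with no raised quadrant, 13 had such a line of at least 3-fold on at least 1 side, 5 of these on both sides of 1 axis, and 5 had no line. Lines were measured after the maps had been seen.

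**Figure D5:**
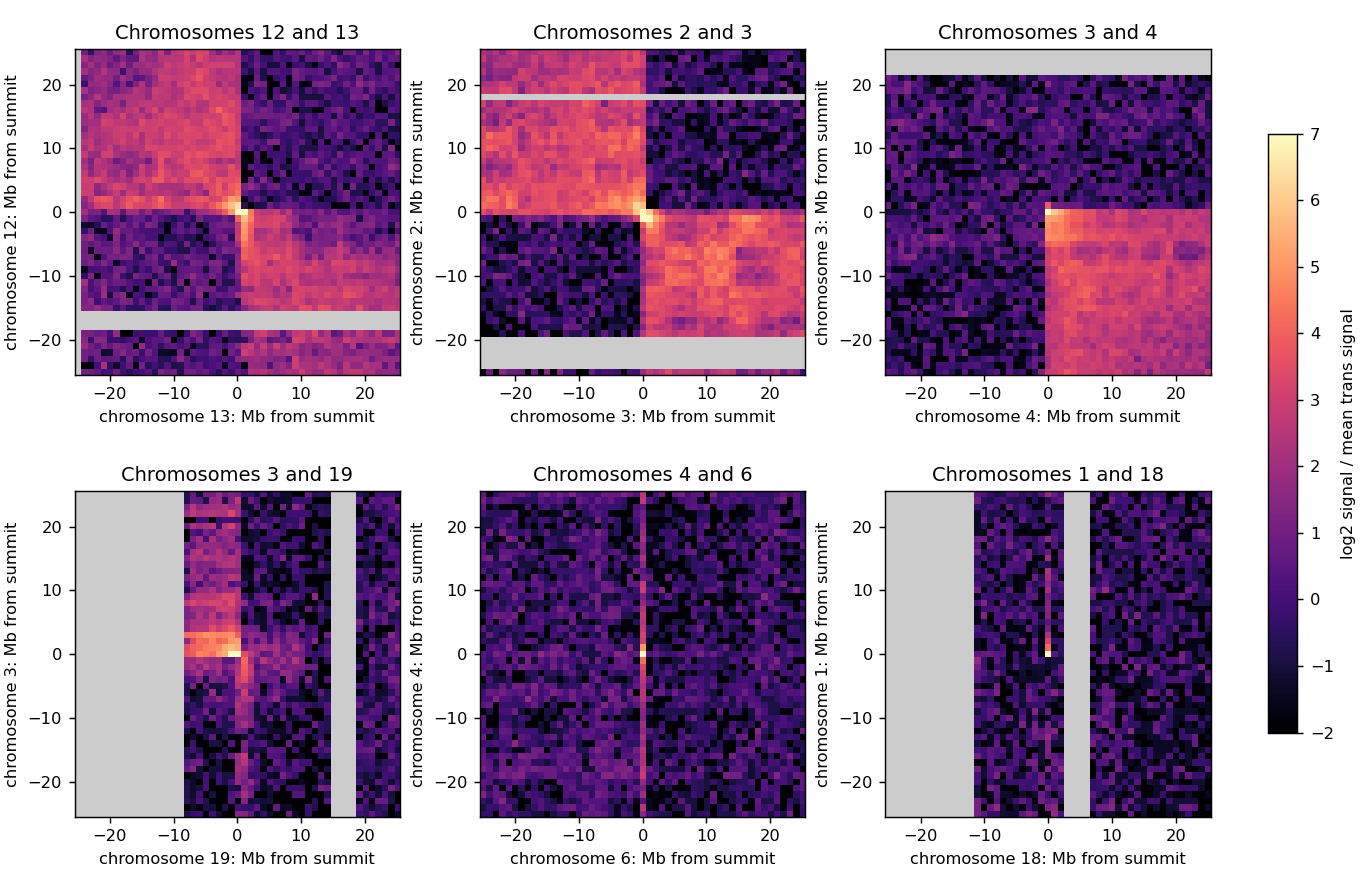
log2 of signal over the mean trans signal (colour, clipped at both ends) around 6 summits, with the distance from the summit in Mb on both axes and unmeasured bins in grey. Opposite raised blocks are seen for chromosomes 12 and 13 (9.54 and 10.4 times the trans mean) and 2 and 3, 1 main block for 3 and 4 (12.1) and 3 and 19 (11.1), and a point or line for 4 and 6 and 1 and 18.

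Several joins shared a region. When summits within 3 Mb of each other were taken as 1 region, a grouping chosen after the values were seen, the 40 joins fell into 22 groups, 9 of which linked 3 or more regions. The largest group held 5 regions of chromosomes 3, 9, 14 and 19 with 5 joins of 122-fold to 376-fold, with the region of chromosome 3 that starts at 49000001 meeting regions of chromosomes 19, 14 and 9. The most closely linked group held 4 regions, on chromosome 1 from 52000001 and from 235000001, on chromosome 15 from 90000001 and on chromosome 18 from 11000001. These were joined by 5 trans joins of 80.8-fold to 206-fold out of 6 possible pairs of regions. The remaining pair, on chromosome 1, appeared among the cis joins as chromosome 1 at 51000001 with chromosome 1 at 234000001. All 6 pairs of these 4 places, or of the bin next to them, were therefore strong. Such sharing shows which places lay near each other in these cells, but not in what order they were joined.

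Within chromosomes, bin pairs at least 20 Mb apart were compared with the mean at their distance. Of 149486 such bin pairs, 22 (0.0147%) were at 10-fold or more, in 12 candidates. The strongest was chromosome 5 at 55000001 with chromosome 5 at 142000001, 87 Mb apart, at 102-fold with 1087 contacts (95% Poisson interval 1023 to 1154). It was followed by chromosome 7 at 73000001 with chromosome 7 at 116000001 (46.9-fold) and by the chromosome 1 pair above (40.2-fold), 183 Mb apart. The last were chromosome 1 at 120000001 with chromosome 1 at 145000001 (24.4-fold) and chromosome 17 at 20000001 with chromosome 17 at 62000001 (14.4-fold). These, like the chromosome 1 pair above, lay on opposite sides of the centromere. Chromosome 7, which had no trans join of 50-fold, thus carried the cis candidate with the next highest fold after that on chromosome 5.

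The contact yield of bins before balancing, which rises with the number of DNA copies and with how well a bin can be measured, marked 1 region of chromosome 17. The 17 bins of chr17:45000001-62000000 had 1.71 to 4.37 times the yield of the median bin (median 2.50), whereas the other bins of chromosome 17 had a median of 0.670. Of the 17 bins at 2-fold or more (0.643% of bins), 16 were on chromosome 17, including 1 outside this region, at 37000001 (2.12). The remaining one was the bin of chromosome 4 in the join with chromosome 6, with a yield of 2.24. The region of chromosome 17 was picked out after its values were seen. Chromosome medians ran from 0.737 for chromosome 22 and 0.755 for chromosome 18 to 1.47 for chromosome 13. The part of this yield in the high trans percentage of chromosome 17 was not tested.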

How the data were processed

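In situ Hi-C of 1 control library of RMG1 cells was analysed. The deposited file gives a contact signal for each pair of 1 Mb bins, with unmeasured bins empty, and the authors' signal is balanced within the library, as read from the row totals. Bowtie2 and the build hg19 are named, per the submitters' processing notes. The aligner's version, the read filters and what made the bins and balanced them were not given in the sources used here. Chromosomes X, Y and M and the other 4 libraries were not used here.

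Because the deposited signal of a bin pair is its contacts multiplied by the factors of both bins, contacts were recovered from repeated ratios of trans values. They came out whole in 98.8% of values between bins (tolerance 0.05) and whole or midway in nearly all. No more than 49.7% of any bin's contacts shared a divisor of 2, 3 or 5, so that no bin's factor was too small by such a divisor. Within bins only 50.5% came out whole, and these recovered values carry less weight. Bins under 0.25 of the median contacts were left out. Contacts midway between whole numbers were rounded for Poisson intervals.

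The analysis ran in Python 3.11.15 with numpy 2.4.6, pandas 2.3.3, scipy 1.17.1 and networkx 3.6.1, and the recovery, the compartments and the search for joins were tested on simulated data. Observed over expected signal used the mean at each distance within a chromosome. Trans percentages are shares of row totals, in which a contact between bins counts for both bins. Gene density is the number of RefSeq protein-coding genes of a chromosome (GRCh38.p14) per measured Mb, used only by chromosome, since no annotation of hg19 was used. For this reason no gene in a bin is named.

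Named are the 3 highest and 3 lowest chromosomes of a measure, the 5 highest and 5 lowest chromosome pairs without bin pairs near joins, the 10 trans and 5 cis joins with the highest summits and the 2 longest runs of each compartment. Others are said to be chosen after their values were seen. Regions, lists and thresholds were chosen with earlier results of these data known. The alternatives tried concerned the scale, the distances, joins, the eigenvector, the expectation and thresholds.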

Additional observations from a re-analysis of the deposited data

How the results depend on the processing

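No overall value changed sign except list medians near 0, but the balance of high over low chromosome pairs turned in recovered contacts (42 above and 48 below, against 45 and 8). The trans percentage of 29.19% became 41.38% without contacts within a bin and 29.37% in recovered contacts. The decay slope of -0.9744 became -1.463 at 1 to 10 Mb, -0.8427 at 10 to 50 Mb, -0.9683 in recovered contacts and -0.927 without bins near joins. The arm ratio of -0.2 became -0.2264 without bins near the centromere, -0.2876 in recovered contacts and -0.3301 without bins near joins. It was -0.1895 without bins near 50-fold joins, a setting added after seeing the data. The percentage of bins in A, 46.18%, became 44.63% with eigenvectors over arms, 44.28% in recovered contacts and 45.57% with the best of the first 3 eigenvectors. The latter choice was also added after seeing the data. Trans compartment strength, 2.247, was 2.595 with the outer 10% of bins, 1.426 by sign, 2.197 in recovered contacts, 2.157 without bin pairs near joins and 2.028 with the best of 3 eigenvectors. Strength within chromosomes, 3.474, was 4.512, 1.657, 3.435 and 3.401 in the same order, without the setting on joins. Of all chromosome pairs, 53 were past the threshold in either direction, against 29 with expectations from trans totals, 90 in recovered contacts, 45 without bin pairs near joins, and 40 when the latter were set over the mean of all trans bin pairs, a setting added after seeing the data. List medians are given in the order of trans totals, recovered contacts and no bin pairs near joins. They were 0.4097, 0.6757 and 0.8616 for small gene-rich chromosomes, 0.003142, -0.07519 and -0.09002 for large ones, and -0.2285, -0.1849 and -0.03757 between both. They were -0.06083, -0.02913 and 0.01776 for gene-poor chromosomes, and 0.1026, 0.223 and 0.4503 for acrocentric ones. The 264 trans joins became 2000 at 5-fold, 84 at 20-fold and 41 at 50-fold, the last added after seeing the data. They were 217 in recovered contacts and 179 with bins under 0.5 of the median left out. The 12 cis joins became 43 at 5-fold, 4 at 20-fold and 9 in recovered contacts. The sign of compartments by annotated genes was not run, since no annotation of the files' build was used. No paired analysis was possible because the control is 1 library and no groups were compared. At 3.22 contacts per trans bin pair, a summit of 10-fold can rest on as few as 5 contacts, so the weak joins are the least certain. Their number depends most on the threshold. Positions are known to 1 Mb, and bins of low yield carry more counting error after balancing.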

Other observations

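Chromosome ends and centromeres of different chromosomes met more often than the rest of the arms. Between the 5 outermost measured bins at the ends of different chromosomes, and without bin pairs near joins, the mean signal was 1.71 times the mean of the trans bin pairs kept, and it was above 1 for 22 of 22 chromosomes, from 1.40 to 2.82. Between the 5 bins on each side of the centromeres of different chromosomes it was 1.57 times, from 1.21 to 2.08, again above 1 for 22 of 22. Ends met centromeres at 1.11 times and bins in the middle of arms met each other at 0.990 times the mean. Ends met the middle of arms at 1.03 times and centromeres met it at 0.973 times. Ends with ends and centromeres with centromeres were thus the highest of the 6 combinations. In recovered contacts the same means were 0.37 on the log2 scale for ends and 0.10 for centromeres, against 0.05 for the middle of arms. On that scale centromeres with each other stood little above the middle of arms with each other. They stood further above centromeres with the middle of arms (-0.26) and with ends (-0.29).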
